A study of Homo sapiens with 7 samples.

Results

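Retinol is oxidized to retinaldehyde and then to retinoic acid by alcohol and aldehyde dehydrogenases, and 9 genes of this route and of alcohol oxidation were followed here: ADH7, ADH1C, RDH10, DHRS3, ALDH1A1, ALDH1A3, CRABP2, CYP26B1 and CYP2S1. They are 9 of 56237 genes summed from the deposited transcripts, and their positions below are on hg19. The list is of named genes, and ADH7 and CYP2S1 were placed on it because of their changes upon TP63 silencing, so their values in that comparison are a description and carry no test.

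The study silenced the transcription factors TP63 and SOX2, and the long noncoding RNA CCAT1, with short hairpin RNAs (shRNAs) to find the genes they control in squamous cancer. RNA-Seq was done on 2 esophageal squamous carcinoma cell lines grown in the dish. The TE5 line gave 4 libraries, with a non-targeting scramble shRNA or with an shRNA to TP63, SOX2 or CCAT1, and the KYSE140 line gave 3, with scramble, TP63 or SOX2 shRNA. Each condition is 1 library, all hairpins were carried by a pLKO.1 lentiviral vector, and the labels name 1 hairpin per target, so a hairpin and its target cannot be told apart. No line had 2 libraries of a condition, so every fold within a line compares 2 libraries and has no p-value.

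Retinoic acid is made inside cells in a pair of steps. Alcohol dehydrogenases and retinol dehydrogenases turn retinol into retinaldehyde, and retinaldehyde dehydrogenases of the ALDH1A family make retinoic acid from it, which binds nuclear receptors and is removed by cytochrome P450 enzymes of the CYP26 family. In stratified squamous epithelia such as that of the esophagus, retinoic acid is known to restrain keratinization, and ADH7 is the alcohol dehydrogenase typical of the upper digestive tract, where it also oxidizes ethanol.

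The libraries held between 68532611 and 98036494 estimated counts. TP63 was at 25.9% of its scramble level in TE5 shTP63 cells and at 26.1% in KYSE140 shTP63 cells, on normalized counts. SOX2 was at 39.5% in TE5 shSOX2 cells but at 77.2% in KYSE140 shSOX2 cells, so SOX2 values of KYSE140 rest on a small reduction. SOX2 was also at 67.2% in TE5 shTP63 cells. CCAT1 was at 30.7% in TE5 shCCAT1 cells, and it was also low in the other 4 knockdown libraries, at 38.0% and 50.8% in TE5 shTP63 and shSOX2 cells and at 41.1% and 43.1% in the KYSE140 pair. In each line the scramble library carries another flow cell or lane tag than the knockdown libraries, so this tag and silencing cannot be told apart for any change that all knockdowns of a line share. The comparisons within a line also share its scramble library. In cultured bulk cells, fewer cells expressing a gene and less RNA of it per cell cannot be told apart. Markers of squamous basal cells, a list that includes TP63 and SOX2, were present. Of these, 9 of 10 were at 1 TPM or more in every TE5 library (summed level 860 to 1830 TPM). In KYSE140 it was 10 of 10 in every library (9490 to 20300 TPM). Of the squamous suprabasal markers, 2 of 6 reached 1 TPM in every library of TE5 and 2 of 6 in KYSE140, with CRNN under 0.1 TPM in every library. Of the columnar epithelium markers, 2 of 5 reached 1 TPM in every TE5 library (summed level 8.5 to 15.5 TPM) and 0 of 5 in KYSE140 (0.081 to 0.328 TPM), with MUC2 and TFF3 under 0.1 TPM in every library.

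The start regions of 4 of the genes are printed because these genes carry the findings below: CYP2S1 and ADH7 upon TP63 silencing, and ALDH1A1 and ALDH1A3 between the lines. Each sequence covers 250 bases before and 50 bases from the RefSeq start and reads 5′ to 3′ in the direction of the gene. It was taken from RefSeq on GRCh38.p14, with an exact match at a single place on the gene's strand of its own chromosome in hg19. Capitals mark each match to CNNG, any 6 bases and CNNG again (the same on both strands). This is the spacing of the C and G bases in the paired sites that p53-family proteins including TP63 bind.
CYP2S1, chr19:41698874-41699173, plus strand: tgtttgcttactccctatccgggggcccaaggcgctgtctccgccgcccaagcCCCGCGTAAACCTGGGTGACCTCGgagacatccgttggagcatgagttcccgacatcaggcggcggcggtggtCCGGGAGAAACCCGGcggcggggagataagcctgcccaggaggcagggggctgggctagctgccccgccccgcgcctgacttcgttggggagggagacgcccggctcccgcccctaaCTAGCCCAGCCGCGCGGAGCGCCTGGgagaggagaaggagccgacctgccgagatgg
ADH7, chr4:100356450-100356749, minus strand: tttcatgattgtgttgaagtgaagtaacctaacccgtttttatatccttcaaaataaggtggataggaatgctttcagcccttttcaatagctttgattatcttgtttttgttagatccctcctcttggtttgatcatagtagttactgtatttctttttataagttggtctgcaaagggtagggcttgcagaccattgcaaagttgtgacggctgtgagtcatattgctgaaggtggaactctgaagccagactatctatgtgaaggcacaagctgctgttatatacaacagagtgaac
ALDH1A1, chr9:75567920-75568219, minus strand: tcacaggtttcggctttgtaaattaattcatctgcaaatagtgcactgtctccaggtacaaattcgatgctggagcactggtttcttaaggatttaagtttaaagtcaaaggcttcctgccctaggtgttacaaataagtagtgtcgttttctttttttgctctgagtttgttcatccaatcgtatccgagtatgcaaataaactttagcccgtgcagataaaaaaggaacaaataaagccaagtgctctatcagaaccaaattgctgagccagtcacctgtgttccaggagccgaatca
ALDH1A3, chr15:101419786-101420085, plus strand: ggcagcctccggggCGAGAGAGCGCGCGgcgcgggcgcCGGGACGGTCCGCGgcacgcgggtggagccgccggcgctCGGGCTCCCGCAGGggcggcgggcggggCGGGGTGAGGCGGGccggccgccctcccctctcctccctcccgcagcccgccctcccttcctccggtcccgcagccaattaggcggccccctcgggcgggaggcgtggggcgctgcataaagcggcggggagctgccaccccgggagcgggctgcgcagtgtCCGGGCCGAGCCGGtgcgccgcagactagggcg

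The CYP2S1 window held 6 matches to these letters, the ALDH1A3 window 5, and the ADH7 and ALDH1A1 windows 0. Overlapping matches were counted separately, and 74% of 35116 promoters of this length hold at least 1 match, so its presence sets no gene apart. The SOX core ACAAT, found in 27.4% of promoters, occurred once among these 4 windows, on the opposite strand of ADH7. The nuclear receptor half-site GGTCA (37.4% of promoters) occurred once, on the opposite strand of CYP2S1, and GCGTG, the core bound by the aryl hydrocarbon receptor (36.5% of promoters), occurred 2 times in ALDH1A3. The windows differ in base make-up. GC content was 70.0% with 29 CG pairs for CYP2S1 and 81.7% with 46 CG pairs for ALDH1A3, against 39.0% with 2 for ADH7 and 40.3% with 7 for ALDH1A1, while the median promoter had 58.7% and 14. The most abundant transcripts of CYP2S1, ALDH1A1 and ALDH1A3 begin at the RefSeq start, and that of ADH7, ENST00000209665, begins 168 bases before it, inside the printed window. RefSeq gives ADH7 a further start, whose window, chr4:100356242-100356541, is not printed. That window held 1 match to GGTCA, on the opposite strand, and 0 to the other motifs.

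Levels are given in TPM, transcript abundance scaled for length and library size, which can be compared between genes. In TE5 scramble cells the order was ALDH1A3 (270 TPM), CYP2S1 (81.4), DHRS3 (73.3), CRABP2 (48.3), RDH10 (29.4), ALDH1A1 (9.82), CYP26B1 (4.29), ADH1C (0.738) and ADH7 (0.447). In KYSE140 scramble cells it was CYP2S1 (175 TPM), CRABP2 (133), ALDH1A1 (78.2), DHRS3 (20.8), RDH10 (17.3), CYP26B1 (6.99), ADH7 (0.238), ALDH1A3 (0.18) and ADH1C (0.0603). The counting intervals of ADH7 (0.136 to 0.387 TPM) and ALDH1A3 (0.121 to 0.257 TPM) overlapped in KYSE140 scramble cells, as did those of ALDH1A3 and ADH1C (0.00731 to 0.218 TPM) there and those of ADH1C (0.56 to 0.959 TPM) and ADH7 (0.32 to 0.595 TPM) in TE5, and the other neighbours in both orders had separate intervals, which cover counting error only.

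**Figure D1:**
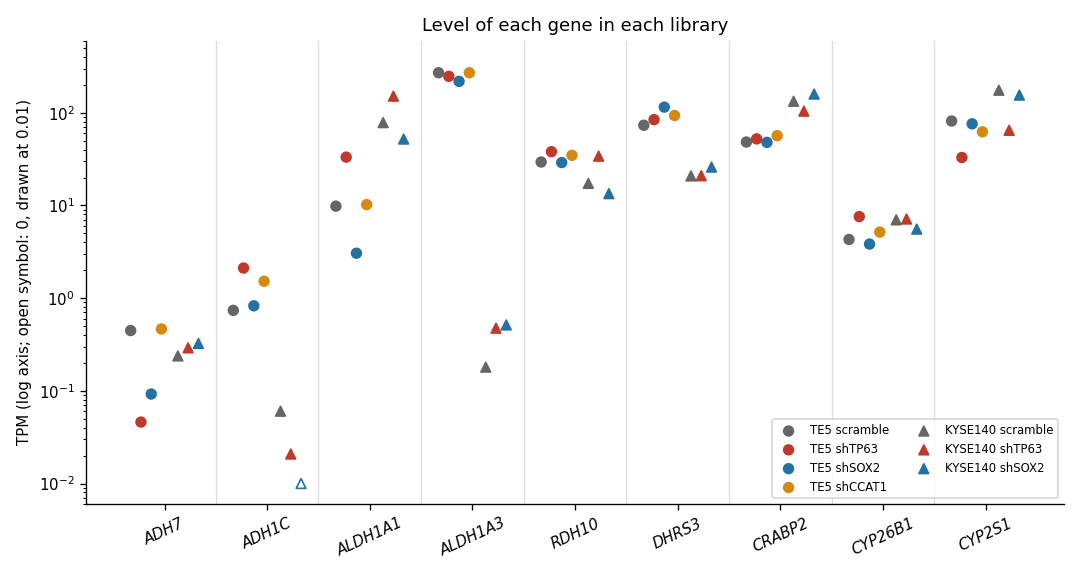
TPM of the 9 genes (log axis) in 4 TE5 libraries (circles) and 3 KYSE140 libraries (triangles), 1 point per library, colored by shRNA. ALDH1A3 stands at 218 TPM or more in TE5 and at 0.514 TPM or less in KYSE140, and the open triangle marks ADH1C at 0 in KYSE140 shSOX2 cells.

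CYP2S1 (chr19:41699115-41713444, plus strand), a cytochrome P450 of epithelia outside the liver that is inducible by dioxin, was lower in both TP63-silenced libraries and in no other knockdown library by a comparable size. In TE5, its normalized counts were 9847 with scramble, 3576 with shTP63, 9441 with shSOX2 and 8167 with shCCAT1. In KYSE140, they were 25528 with scramble, 9035 with shTP63 and 24760 with shSOX2. The shTP63 library was thus the lowest in each line, at 36.3% of scramble in TE5 and 35.4% in KYSE140. The log2 fold changes were -1.46 (95% counting interval -1.51 to -1.41) and -1.50 (-1.53 to -1.46), and -1.40 and -1.45 when the shSOX2 library with the same flow cell or lane tag was the reference. Counts as deposited, with no scaling between libraries, gave -1.04 and -0.92. Upon SOX2 silencing the log2 fold changes were -0.06 (-0.10 to -0.02) and -0.04 (-0.07 to -0.02), with an adjusted p of 0.912 in edgeR's quasi-likelihood test over both lines, and upon CCAT1 silencing the value was -0.27 (-0.31 to -0.23). One transcript, ENST00000310054, held 94.3% to 98.2% of the gene's counts in the 7 libraries, and 0 of the gene's 31-base words occurred in transcripts of another gene.

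ADH7 (chr4:100333418-100356667, minus strand), the class IV alcohol dehydrogenase that oxidizes ethanol and retinol, was near the limit of detection in every library. Its estimated counts in TE5 were 43.5 with scramble, 6 with shTP63, 11 with shSOX2 and 54 with shCCAT1. In KYSE140 they were 16 with scramble, 41 with shTP63 and 35 with shSOX2. The shTP63 and shSOX2 libraries were therefore low in TE5, where scramble and shCCAT1 lay close together, while in KYSE140 the scramble library was the lowest. The log2 fold changes upon TP63 silencing were -3.02 (-4.79 to -2.03) in TE5 and 0.75 (-0.08 to 1.71) in KYSE140, and upon SOX2 silencing -1.91 (-3.08 to -1) and 0.94 (0.08 to 1.92). The value in TE5 shTP63 cells was -1.90 as a TPM ratio with 0.1 TPM added and -1.91 with 10 added to the normalized counts. Against the shSOX2 library with the same tag it was -1.12 (-3.00 to 0.28), which includes 0. Over both lines the fitted change was -1.26 with a standard error of 0.97, and 0.55 without the TE5 scramble library, so the sign of this average rests on that library. Which transcript of ADH7 received the counts also varied: ENST00000209665 held 95.7% in TE5 scramble and 100% in TE5 shSOX2 cells, but ENST00000437033 held 96.4% in TE5 shTP63 cells and 65.5% in TE5 shCCAT1 cells.

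**Figure D2:**
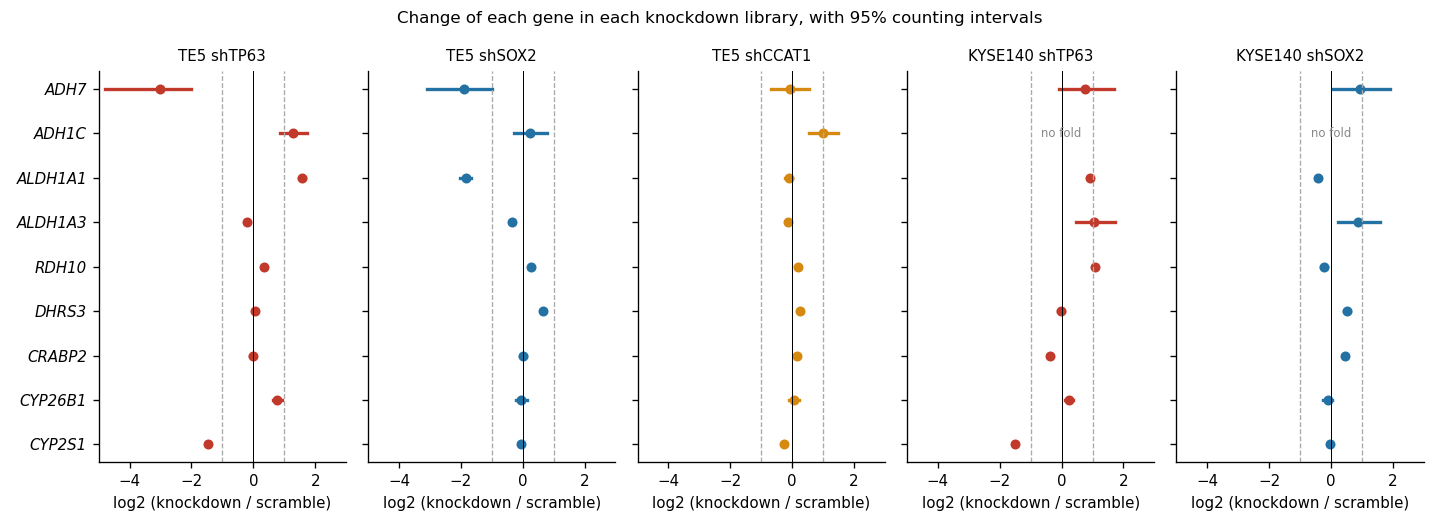
Log2 fold change of each gene in each of the 5 knockdown libraries against the scramble library of its line (points), with 95% intervals of the ratio that cover counting error only (bars) and dashed lines at -1 and 1. CYP2S1 is near -1.5 in both shTP63 panels (-1.46 and -1.50), and ADH7 is below 0 in TE5 shTP63 and shSOX2 and above 0 in the KYSE140 panels, and "no fold" marks ADH1C in KYSE140, where it had at most 2 counts.

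ADH1C (chr4:100257654-100273903, minus strand), a class I alcohol dehydrogenase best known from liver, was above 3 counts in the TE5 libraries only. Its estimated counts in TE5 were 56.8 with scramble, 186 with shTP63, 67.9 with shSOX2 and 150 with shCCAT1, and in KYSE140 they were 2, 1 and 0. The shTP63 and shCCAT1 libraries were high in TE5 and the other pair low. The log2 fold changes in TE5 were 1.27 (0.85 to 1.74) with shTP63, 0.24 (-0.29 to 0.77) with shSOX2 and 1 (0.56 to 1.47) with shCCAT1, the last just under 1 before rounding. Over the 3 conditions the lines share, TE5 had 311 counts and KYSE140 3, a ratio of 85.3 (28.9 to 416) after scaling. Of the 31-base words of ADH1C, 32.7% occur in transcripts of other genes, most in the near copy ADH1B (25.1%), which makes its level uncertain. In KYSE140 shSOX2 cells the count of 0 allows up to 3 counts.

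RDH10 (chr8:74206837-74237516, plus strand), a retinol dehydrogenase that makes retinaldehyde, was the most abundant of the retinol-oxidizing genes followed (ADH7, ADH1C and RDH10). Its TPM in TE5 was 29.4 with scramble, 38 with shTP63, 29 with shSOX2 and 34.7 with shCCAT1. In KYSE140 it was 17.3 with scramble, 34 with shTP63 and 13.4 with shSOX2. The shTP63 library was the highest of each line, by little in TE5 and clearly in KYSE140. RDH10 made up 94.6% to 99.1% of the summed TPM of ADH7, ADH1C and RDH10. This sum leaves out other oxidoreductases of retinol and retinaldehyde. Of these, RDH11 was higher than RDH10, at 122 TPM in TE5 scramble and 170 TPM in KYSE140 scramble cells. The log2 fold changes on normalized counts were 0.34 (0.28 to 0.39) and 1.07 (1.00 to 1.14) upon TP63 silencing. edgeR's quasi-likelihood test over both lines gave 0.74 with a standard error of 0.26 and an adjusted p of 0.264, which did not pass. The change was 0.20 without the KYSE140 shTP63 library and 1.17 without the TE5 one, and over 13 alternative settings the adjusted p ran from 0.00498 to 1, with 4 passing. Against the shSOX2 library with the same flow cell or lane tag, the values were 0.07 in TE5 and 1.30 in KYSE140.

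DHRS3 (chr1:12627939-12678216, minus strand), which reduces retinaldehyde back to retinol, was more abundant in TE5. Its TPM was 73.3, 84.2, 115 and 93.4 in TE5 with scramble, shTP63, shSOX2 and shCCAT1. In KYSE140 it was 20.8, 20.9 and 25.9 with scramble, shTP63 and shSOX2. The shSOX2 library was the highest of each line, and the ranges of the lines did not overlap. Upon SOX2 silencing the log2 fold changes were 0.67 (0.62 to 0.72) in TE5 and 0.51 (0.41 to 0.61) in KYSE140, and in edgeR's test 0.57 with a standard error of 0.14, with an unadjusted p of 0.00419 and an adjusted p of 0.291. DESeq2 gave the same change with an adjusted p of 0.0317. Upon TP63 silencing they were 0.04 (-0.00 to 0.09) and -0.03 (-0.12 to 0.07). Between 95.3% and 97.7% of these counts belong to ENST00000376223, a transcript that the annotation used here no longer lists and that was assigned to DHRS3 by hand. Without it, the log2 fold changes upon SOX2 silencing were 0.81 and 0.17.

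ALDH1A3 (chr15:101417919-101456831, plus strand) and ALDH1A1 (chr9:75515587-75695358, minus strand), both of which make retinoic acid from retinaldehyde, had opposite levels in the lines. ALDH1A3 was at 270, 247, 218 and 270 TPM in TE5 with scramble, shTP63, shSOX2 and shCCAT1. In KYSE140 it was at 0.18, 0.474 and 0.514 TPM with scramble, shTP63 and shSOX2. ALDH1A1 was at 9.82, 33.2, 3.05 and 10.2 TPM in TE5 and at 78.2, 151 and 52 TPM in KYSE140. Neither gene's ranges overlapped between the lines. In edgeR's test KYSE140 differed from TE5 by -9.16 on the log2 scale for ALDH1A3 (standard error 0.28, adjusted p = 1.18e-06) and by 3.37 for ALDH1A1 (standard error 0.37, adjusted p = 0.000192). Of the summed TPM of ALDH1A1, ALDH1A2 and ALDH1A3, ALDH1A3 made up 86.8% to 97.9% in TE5 and ALDH1A1 98.2% to 99% in KYSE140. Of the genes beside ALDH1A3, GCAWKR on the upstream side was at 8.99 to 13.1 TPM in TE5 and at 0.0885 to 0.141 TPM in KYSE140, and LRRK1 on the downstream side went the other way, at 0.36 to 1.45 TPM and 8.18 to 11.2 TPM. The antisense gene ALDH1A3-AS1, at 2.94 to 4.35 TPM in TE5 and 0.685 to 1.8 TPM in KYSE140, shares 29.4% of the 31-base words of ALDH1A3 when both strands are read, so in KYSE140 the reads of the pair cannot be told apart if counting ignored strand.

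**Figure D3:**
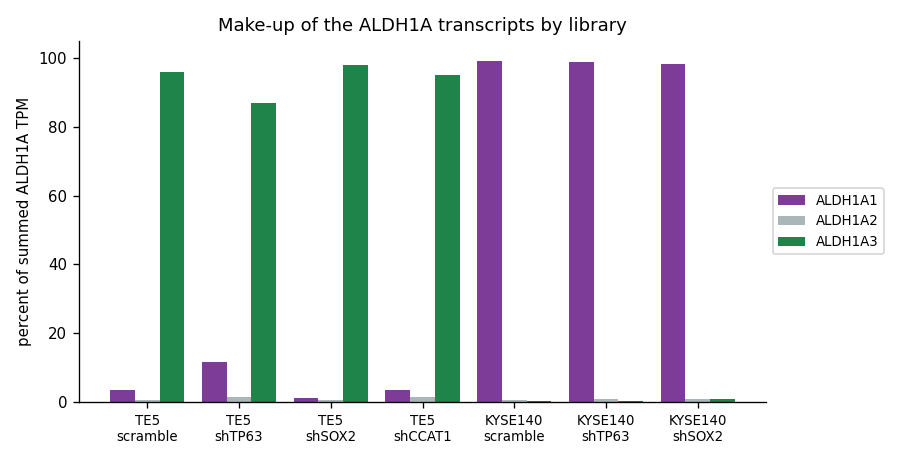
Percent of the summed TPM of ALDH1A1, ALDH1A2 and ALDH1A3 held by each gene in each library (bars from 0, 1 library each). ALDH1A3 holds at least 86.8% in the 4 TE5 libraries and ALDH1A1 at least 98.2% in the 3 KYSE140 libraries.

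Upon silencing, ALDH1A1 differed in direction between the hairpins. With TP63 silenced, its log2 fold changes were 1.57 (1.48 to 1.67) in TE5 and 0.91 (0.87 to 0.95) in KYSE140. With SOX2 silenced they were -1.84 (-2.04 to -1.66) and -0.43 (-0.48 to -0.38), and upon CCAT1 silencing in TE5 -0.11 (-0.23 to 0.01). The shTP63 library was thus the highest and the shSOX2 library the lowest of each line, and the ratio between these 2, which share a flow cell or lane tag, was 3.42 (3.25 to 3.60) on the log2 scale in TE5 and 1.34 (1.30 to 1.38) in KYSE140. Neither silencing passed edgeR's test over both lines: TP63 silencing gave 1.32 with a standard error of 0.41 and an adjusted p of 0.223, and SOX2 silencing -1.01 with a standard error of 0.42 and an adjusted p of 0.533. Over 13 alternative settings the adjusted p ran from 8.14e-05 to 1 for TP63 silencing and from 0.00244 to 1 for SOX2 silencing, and 4 passed for each. The change with TP63 silenced was 0.53 without the TE5 shTP63 library and 1.88 without the KYSE140 one, and that with SOX2 silenced was -0.31 without the TE5 shSOX2 library and -2.03 without the KYSE140 one. One transcript, ENST00000297785, held 93.4% to 100% of the ALDH1A1 counts, with no 31-base word in another gene's transcripts. ALDH1A3 had a log2 fold change of -0.19 (-0.21 to -0.17) in TE5 shTP63 cells, and of 1.06 (0.46 to 1.72) in KYSE140 shTP63 cells at 29.9 and 94.2 estimated counts.

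CRABP2 (chr1:156669398-156675608, minus strand) carries retinoic acid from the cytosol to its receptors in the nucleus. Its TPM was 48.3, 52.2, 47.9 and 56.5 in TE5 with scramble, shTP63, shSOX2 and shCCAT1, and 133, 104 and 159 in KYSE140 with scramble, shTP63 and shSOX2. Every KYSE140 library was above every TE5 library. The line difference was 1.64 on the log2 scale (standard error 0.17, adjusted p = 0.00014 in edgeR's test). Upon silencing, the TE5 values stayed between -0.02 and 0.15 on the log2 scale, while KYSE140 had -0.37 (-0.42 to -0.31) with shTP63 and 0.45 (0.40 to 0.51) with shSOX2, and neither silencing passed (adjusted p of 0.74 and 0.8 in edgeR's test).

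CYP26B1 (chr2:72356367-72374991, minus strand), which degrades retinoic acid, was low in both lines. Its TPM was 4.29, 7.58, 3.83 and 5.16 in TE5 with scramble, shTP63, shSOX2 and shCCAT1, and 6.99, 7.14 and 5.55 in KYSE140 with scramble, shTP63 and shSOX2. The shTP63 library was the highest of each line, although by little in KYSE140. Upon TP63 silencing the log2 fold changes were 0.77 (0.63 to 0.92) and 0.25 (0.12 to 0.38), and edgeR's test gave 0.52 with a standard error of 0.22 and an adjusted p of 0.335. The line difference of 0.65 (standard error 0.18) had an adjusted p of 0.0161, which became 0.115 and 0.109 without the scramble library of TE5 or of KYSE140. Its counts were divided between ENST00000412253 (40.3% to 61.6%) and ENST00000001146 (28.7% to 48.4%). CYP26A1, of the same family, was at 8.71 TPM in TE5 scramble and 0.442 TPM in KYSE140 scramble cells.

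Within each line, genes that reached 10 counts in either library were compared, and a gene was counted when its log2 fold change was past -1 or 1. In TE5 shTP63 cells 4 of 9 genes were past the threshold, where 20.1% of 24472 genes were, namely ADH7 and CYP2S1 lower (5.45% of all genes were past -1) and ADH1C and ALDH1A1 higher (14.6% were past 1), and nothing is read from ADH7 and CYP2S1, which were chosen on this comparison. In KYSE140 shTP63 cells it was 3 of 8 against 12.9% of 21913 genes, with CYP2S1 lower (4.17% of all genes) and ALDH1A3 and RDH10 higher (8.68%). This count again includes ADH7 and CYP2S1, which were chosen on TP63 silencing, so nothing is read from them here either. In TE5 shSOX2 cells ADH7 and ALDH1A1 were past -1, 2 of 9 against 4.8% of all genes, with 10.9% past the threshold either way. ADH7 was chosen on a comparison with this same TE5 scramble library, so its place in this count is a description only. The count was 0 of 9 in TE5 shCCAT1 cells, where 17.6% of genes were past the threshold, and 0 of 8 in KYSE140 shSOX2 cells, where 13% were. The median log2 fold change of the genes followed was 0.04 in TE5 shTP63 cells and 0.50 in KYSE140 shTP63 cells, beside 0.06 and 0.05 over all genes compared. These medians include ADH7 and CYP2S1 and are a description only.

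**Figure D4:**
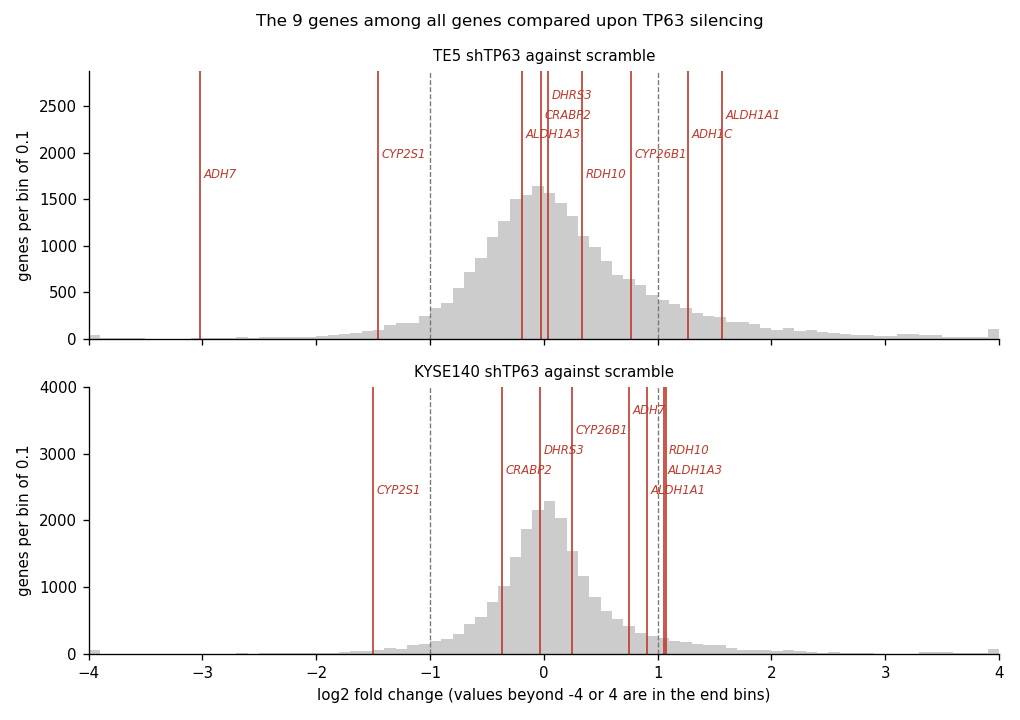
Number of genes (gray bars) per bin of 0.1 of the log2 fold change upon TP63 silencing, 24472 genes in TE5 and 21913 in KYSE140, with red lines at the genes followed. CYP2S1 lies at the low end in both lines, at the percentiles 2.2 and 1.8, while ADH7 lies at percentile 0.3 in TE5 and 87.8 in KYSE140.

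Over both lines, edgeR's quasi-likelihood test (6 libraries, cell line as block, Benjamini-Hochberg adjusted p under 0.1) called 288 of 23504 genes upon TP63 silencing (1.23%) and 38 upon SOX2 silencing (0.162%). All 9 genes passed its filter on low counts. Of the 7 genes not chosen on the TP63 comparison 0 were called upon TP63 silencing, 3 had an unadjusted p under 0.05 (14.7% of all genes did), and DESeq2 called 0. Upon SOX2 silencing 0 of 9 were called, 2 had an unadjusted p under 0.05 (9.23% of all genes did), and DESeq2 called 1, DHRS3. SOX2 itself was not called upon its own silencing (-0.88, adjusted p = 0.292). Between the lines 7 of 9 were called, beside 66.8% of all genes: ALDH1A1, CRABP2, CYP2S1 and CYP26B1 were higher in KYSE140 (32% of all genes were) and ADH1C, ALDH1A3 and DHRS3 lower (34.8%). The change of CYP2S1 was 1.36 (standard error 0.11, adjusted p = 3.98e-05). ADH7 (1.22, adjusted p = 0.227) and RDH10 (-0.35, adjusted p = 0.201) did not pass. As each line is a single culture line, these p-values measure only the spread between these libraries.

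Other genes of the route were read from 7 lists, in which 79 different genes were tested, and 0 of them were called in either silencing comparison. An unadjusted p under 0.05 was reached by 23 genes with TP63 silenced and by 9 with SOX2 silenced, beside 14.7% and 9.23% of all genes. DESeq2 called 13 and 4, beside 11.3% and 4.81% of the genes to which it gave an adjusted p. The 13 were ADH5, ALDH1B1, ALDH3A1, ALDH3B1, CYP1B1, CYP26A1, CYP2J2, CYP4F11, DHRS4, FABP5, RARG, RXRA and TGM2. The 4 were ALDH3A2, ALDH3B1, PLAAT4 and RDH16. For each list below, 0 genes were called in each silencing comparison.

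The list of retinoic acid receptors had 6 genes tested. RXRA, the shared partner of the receptors, was at 111 TPM with scramble and 67.3 with shTP63 in TE5, and at 50.8 and 29.6 in KYSE140. RARG, the receptor prominent in squamous epithelium, was at 77.2 and 50.4 TPM in TE5 and at 177 and 115 in KYSE140. The shTP63 library was the lower one in all 4 of these pairs. TE5 shCCAT1 cells, with the same flow cell or lane tag, were also low, at 75 TPM for RXRA and 52.8 for RARG. The TE5 shSOX2 library, with that tag as well, was at 102 and 71.5 TPM. KYSE140 shSOX2 cells, with the tag of KYSE140 shTP63, were at 62.8 TPM for RXRA and 175 for RARG. In TE5, the log2 fold changes of RARG were -0.70 with shTP63, -0.62 with shCCAT1 and -0.08 with shSOX2. The changes over both lines were -0.81 for RXRA (standard error 0.17, adjusted p = 0.111) and -0.64 for RARG (standard error 0.14, adjusted p = 0.115), both just short of edgeR's threshold, and DESeq2 called both. RXRB, the third most abundant, had 0.11 (adjusted p = 0.744).

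Of 7 genes known to be induced by retinoic acid, 7 were above 0 upon TP63 silencing in TE5, 3 of them past 1, and 4 of 6 were above 0 in KYSE140. Of all genes, 54.1% were above 0 and 14.6% past 1 in TE5, and 54.7% were above 0 in KYSE140. The median of the list was 0.80 on the log2 scale in edgeR's fit of both lines, beside 0.04 over all genes. PLAAT4, a retinoid-inducible phospholipase, was the most abundant. It was at 38.9, 104, 18.9 and 52.7 TPM in TE5 with scramble, shTP63, shSOX2 and shCCAT1, and at 10.5, 13.5 and 4.55 TPM in KYSE140 with scramble, shTP63 and shSOX2. The shSOX2 library was the lowest of each line, with log2 fold changes of -1.01 and -1.02 (edgeR's adjusted p = 0.361, and called by DESeq2), as it was for ALDH1A1. With shTP63, RARB, a receptor induced by its own ligand, had 0.21 in TE5 and -0.52 in KYSE140, and STRA6, a membrane receptor for retinol uptake, 1.26 and -0.21. CYP26A1 and TGM2, both called by DESeq2, were above 0 in both lines, with 0.34 and 1.95 for CYP26A1 and 2.36 and 1.12 for TGM2. Their adjusted p in edgeR's test was 0.246 and 0.27. TGM2 was at 0.0761 TPM in KYSE140 scramble and 0.153 TPM in KYSE140 shTP63 cells.

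**Figure D5:**
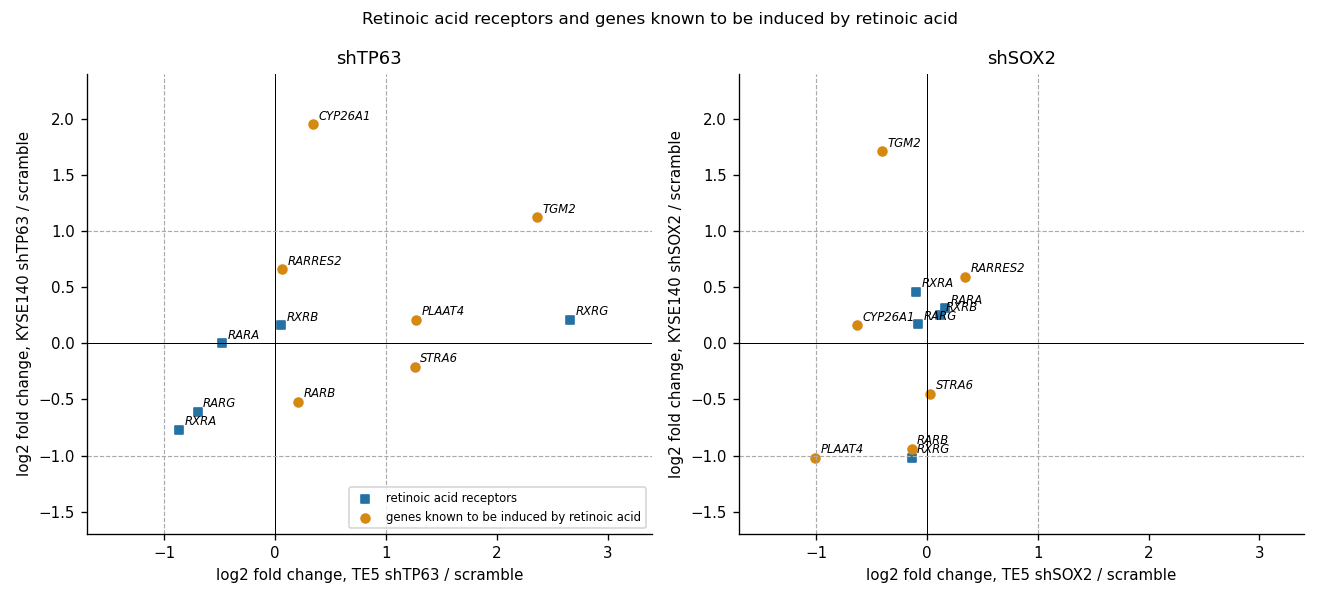
Log2 fold change in TE5 (x axis) and KYSE140 (y axis) upon TP63 silencing (left) and SOX2 silencing (right) for retinoic acid receptors (squares) and genes known to be induced by retinoic acid (circles, RARB among them), 1 library per line and condition. RXRA and RARG are below 0 in both lines upon TP63 silencing, PLAAT4 is near -1 in both lines upon SOX2 silencing, and RARRES1 is not drawn because it had too few counts in KYSE140.

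Of 21 other alcohol and aldehyde dehydrogenases tested, 10 were above and 11 below 0 upon TP63 silencing over both lines. ALDH3A1, an aldehyde dehydrogenase of squamous and corneal epithelium, was at 254, 126, 137 and 120 TPM in TE5 with scramble, shTP63, shSOX2 and shCCAT1, and at 10.7, 9.14 and 7.18 TPM in KYSE140 with scramble, shTP63 and shSOX2. It was low in each of the 3 TE5 knockdown libraries, which share 1 flow cell or lane tag. In edgeR's test of TP63 silencing ADH5, the widely expressed formaldehyde-oxidizing enzyme, had a log2 fold change of -0.59 (adjusted p = 0.235) and ALDH3A2, which oxidizes fatty aldehydes, one of -0.25 (adjusted p = 0.557).

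Among 12 other retinol and retinaldehyde oxidoreductases tested, 7 were above 0 upon TP63 silencing. AKR1B10, an aldo-keto reductase that reduces retinaldehyde, was at 207 TPM with scramble, 49.5 with shTP63, 183 with shSOX2 and 137 with shCCAT1 in TE5, and at 1.82 TPM or less in KYSE140. The log2 fold change over both lines with TP63 silenced was -2.0 (standard error 0.55, adjusted p = 0.183). RDH11 had 0.20 (adjusted p = 0.626) and DHRS4 -0.44 (adjusted p = 0.245). Of 8 genes of retinoid uptake, binding and storage, FABP5, which carries fatty acids and retinoic acid, had a log2 fold change of -0.98 (adjusted p = 0.157), RBP5 of 0.78 (adjusted p = 0.231) and DGAT1 of -0.19 (adjusted p = 0.623) upon TP63 silencing.

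Of 22 other cytochrome P450 enzymes tested, 15 were above 0 upon TP63 silencing, with a median of 0.33 beside 0.04 over all genes. CYP2J2, an epoxygenase of arachidonic acid, was past 1 in both lines (1.46 and 1.07, adjusted p = 0.139), as was CYP4F12 (2.70 and 1.10, adjusted p = 0.29), the opposite direction to CYP2S1. CYP4F12 was also at 2.69 in KYSE140 shSOX2 cells, which share a flow cell or lane tag with KYSE140 shTP63. In TE5, CYP4F12 had 0.21 with shSOX2 and -0.51 with shCCAT1, libraries that share a tag with TE5 shTP63. CYP1A1, the classical target of the aryl hydrocarbon receptor, was at 22.7 TPM in TE5 scramble and 52.8 in TE5 shTP63 cells, and at 176 and 152 TPM in KYSE140, with a change of 0.47 (adjusted p = 0.536). CYP4F11 (-0.82, adjusted p = 0.179) and CYP51A1 (-0.16, adjusted p = 0.787) were the others with the highest mean TPM. CYP4F11 was at 25.3 TPM in TE5 scramble cells but at 0.0828 TPM or less in KYSE140. Its log2 fold changes upon TP63 silencing were -0.96 in TE5 and -0.25 in KYSE140. On the list of 9 genes of the aryl hydrocarbon receptor and its targets, the median change upon TP63 silencing was -0.03, with 0.07 for NQO1 and -0.15 for UGT1A6. DESeq2 called 2 of these genes, which went in opposite directions. In edgeR's fit CYP1B1 had 1.06 (adjusted p = 0.12) and ALDH3A1 -0.76 (adjusted p = 0.165).

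The genes whose pattern over the 7 libraries was most like that of CYP2S1 were INPP5A, GSDME and FAM89A, among 11973 genes with a mean of at least 5 CPM. Likeness was the root-mean-square difference of log2 (CPM + 1) after the mean of each line was taken out, and it was 0.064, 0.119 and 0.132, beside a spread of 0.633 for CYP2S1 itself. INPP5A, an inositol polyphosphate phosphatase, was at 42.2, 16.6, 43.5 and 37.2 CPM in TE5 with scramble, shTP63, shSOX2 and shCCAT1, and at 40.8, 15.7 and 43.8 CPM in KYSE140 with scramble, shTP63 and shSOX2. As for CYP2S1, the shTP63 library stood alone at the low end in each line. This follows from how INPP5A was picked, by its likeness to CYP2S1 in these same libraries. For ADH7, whose spread on this scale was 0.199, the nearest genes were NDRG2 (0.054), HELLS (0.054) and ENSG00000255508 (0.055), all at far higher levels than ADH7 and with smaller fold changes, so the scale compresses its pattern.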

How the data were processed

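Total RNA of 7 cultures was sequenced as 100 bp paired-end reads. Kallisto was used by the authors to pseudoalign them against the Ensembl transcriptome for hg19 (tool versions are not given in the sources used here), and the authors deposited, for each of 196354 transcripts, an estimated count, a TPM value (scaled by library and length) and an effective length. Estimated counts are deposited unscaled.

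Transcripts were summed to genes with GENCODE 44 on hg19: 182862 matched by identifier (93.6% of counts), 7011 were assigned because both neighbours in the file belong to 1 gene (3.72%), 2 were assigned by hand (DHRS3 and CCAT1), and 6479 (2.69%) were left out. Sums rounded to whole numbers were tested with edgeR 4.0.16 (R 4.3.3, TMM, filterByExpr, quasi-likelihood test, cell line as block, 2 residual degrees of freedom, adjusted p under 0.1, the threshold the study states). Within a line, log2 ratios of TMM-normalized counts plus 1 have exact 95% counting intervals, which cover counting error only. The alternatives were DESeq2 1.42.0, other scalings, filters, pseudocounts and left-out libraries. The edgeR fit was tested on simulated counts, which had less spread between libraries than these data and no difference between the lines. Ratios, sequences and plots were made in Python 3.11.15 (scipy 1.17.1, pandas 2.3.3, numpy 2.4.6; figures in matplotlib 3.10.9). Motifs were searched on both strands.

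The 9 genes and the lists were chosen with earlier results of these data known, and nothing here is independent support for a pattern already seen. Genes were named by rule: the 9 genes, the shRNA targets, from each list the 3 with the highest mean TPM and those past -1 or 1 in the same direction in both lines with at least 100 counts, and the 3 genes most like ADH7 and CYP2S1. List genes that DESeq2 called upon silencing were named as well. Items of 2 lists are not reported here and were left out of the counts and medians of those lists.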

Additional observations from a re-analysis of the deposited data

Results flagged for a closer look

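Responses of 3 genes went in opposite directions in TE5 and KYSE140, with both counting intervals away from 0. With 1 library per line and condition the differences between the lines were not tested. Upon SOX2 silencing, ADH7 had a log2 fold change of -1.91 in TE5 and 0.94 in KYSE140, a difference of 2.85 at 43.5 estimated counts or fewer per library. ALDH1A3 had -0.19 and 1.06 upon TP63 silencing, a difference of 1.25, and -0.34 and 0.88 upon SOX2 silencing, a difference of 1.22, with the KYSE140 values resting on 29.9 to 94.2 counts per library. RDH10 had 0.26 and -0.23 upon SOX2 silencing, a difference of -0.49.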

How the results depend on the processing

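The model of both lines has 2 residual degrees of freedom. Its counts of called genes moved by over 1.5 times under most alternatives in the silencing comparisons and under none between the lines. Upon TP63 silencing 288 genes were called, and 1419 without the filter on low counts, 1818 with DESeq2, 50 with length-scaled counts, 434 with all 7 libraries and 0 when transcripts without a gene were kept (chosen after seeing the data). Upon SOX2 silencing 38 were called, and 485, 633 and 17 under the first 3 of these and 14 with such transcripts kept. With no replicate block, that is without cell line in the model, 0 genes were called in either silencing comparison. The libraries share only a line, not a replicate number, so the block is the pairing. Leaving out 1 library gave 0 to 2810 calls for TP63 (0 without either scramble library, 590 without TE5 shTP63, 1156 without TE5 shSOX2, 2810 without KYSE140 shTP63, 1412 without KYSE140 shSOX2) and 0 to 1007 for SOX2 (0 without either scramble library, 138 without KYSE140 shSOX2, 372 without TE5 shSOX2, 973 without KYSE140 shTP63, 1007 without TE5 shTP63). The cause was not tested. Between the lines the count stayed within 13183 to 14951 without 1 library, beside 15701.

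Genes past the fold threshold numbered 4914, 2495, 4244, 2816 and 2698 in TE5 shTP63, TE5 shSOX2, TE5 shCCAT1, KYSE140 shTP63 and KYSE140 shSOX2 cells. They numbered 2687, 1111, 2117, 1357 and 1587 with a pseudocount of 10, 10758, 9782, 10495, 8235 and 9310 with a minimum of 1 count, and 2168, 674, 1166, 765 and 846 with a minimum of 50 counts. With no scaling KYSE140 shTP63 had 4973, and the share of higher genes rose from 67.6% to 92.7% there, from 72.9% to 91.0% in TE5 shTP63, from 66.6% to 83.2% in TE5 shCCAT1 and from 52.9% to 64.3% in KYSE140 shSOX2 cells. As a TPM ratio the last share was 40.6%, and with a minimum of 1 count that of TE5 shCCAT1 was 42.9%. Of the 9 genes, 1 in place of 2 was past the threshold in TE5 shSOX2 cells with a minimum of 50 counts, 1 in place of 0 in TE5 shCCAT1 cells with no scaling, and in KYSE140 shSOX2 cells 2 in place of 0 with no scaling, 1 as a TPM ratio and 1 with a minimum of 1 count.

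Values of single genes in the model of both lines kept their direction and side of the threshold 288 times and reversed 29 times, each time in a silencing comparison. None of the genes given a test was called in those comparisons, and ADH7 and CYP2S1 were given none upon TP63 silencing. A call was gained 20 times and lost 2 times, the latter for CYP26B1 between the lines, and 3 values of ADH7 upon TP63 silencing moved by more than the standard error. Within a line, 79 values of the 9 genes moved outside the counting interval and 124 did not. Without a replicate block the change of ALDH1A3 was -0.15 for TP63 and that of ADH1C 0.17 for SOX2. DHRS3 upon TP63 silencing was -0.01 with DESeq2 size factors, -0.00 without the filter and -0.02 with DESeq2. ALDH1A3 upon SOX2 silencing was 0.08 with DESeq2, 0.25 with length-scaled counts and 0.01 with 7 libraries, and RDH10 was -0.13 with length-scaled counts. Leaving out 1 library reversed, for TP63, ADH7 (range -2.87 to 0.55), ADH1C (-1.80 to 1.32), ALDH1A3 (-0.19 to 1.03), DHRS3 (-0.08 to 0.06) and CRABP2 (-0.50 to 0.08), and for SOX2, ADH7 (-2.25 to 1.15), ADH1C (-3.30 to 0.20), ALDH1A3 (-0.35 to 0.85), RDH10 (-0.46 to 0.44), CRABP2 (-0.08 to 0.50) and CYP26B1 (-0.26 to 0.07). CYP2S1 stayed between -1.52 and -1.46 over the alternatives of the TP63 fit.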
